A study of Arabidopsis thaliana with 39 samples.

Results

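The nopaline synthase promoter (NOSp) and terminator (NOSt) of pROK2 frame the plant-selectable kanamycin resistance gene nptII, and their small RNAs were examined in rosette leaves of the Arabidopsis thaliana line SALK_059379, which carries the pROK2 T-DNA. Reads were counted as NOSt reads when their midpoint lay at 6778 to 7038 or 8607 to 8867 bp of the plasmid, and as NOSp reads when it lay at 10047 to 10405 bp, provided that every base matched the plasmid. This gave 1848 reads, 880 on the 2 NOSt copies and 968 on the NOSp stretch, out of 25606 small RNA reads listed for pROK2 (7.22%) and out of 21957 that matched it exactly (8.42%). Another 157 reads on NOSt and 155 on NOSp had the right midpoint but differed from the plasmid in sequence.

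The small RNA data of this line came from 1 library of a pool of segregating plants, a T-DNA insertion line in the Columbia background with complex insertions. The sample labels give growth in soil at 21 °C with 16 h of light, whereas the methods give slightly cooler conditions and a shorter day. A comparison was made with 1 small RNA library from leaves of SAIL_232, which carries the pCSA110 T-DNA with a further NOSt copy. The methods state that small RNA libraries were sequenced in duplicate. Only 1 read list is given for each line, so that no replicate error can be estimated. All intervals given are 95% intervals that cover counting error only, and PCR copies of a molecule are not independent counts. The intervals of counts and shares are exact, and those of differences are Newcombe intervals, which are approximate.

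Plants process double-stranded RNA into small interfering RNAs (siRNA) with Dicer-like enzymes. DCL4 makes 21nt and DCL2 makes 22nt siRNA, which are loaded into ARGONAUTE proteins that act on transcripts, and 22nt siRNA are known to trigger the production of secondary siRNA. DCL3 makes 24nt siRNA, which guide DNA methylation in the RNA-directed DNA methylation (RdDM) pathway, at promoters among other places. NOSp and NOSt derive from the Ti plasmid of Agrobacterium tumefaciens. NOSp starts transcription of nptII, and NOSt holds the signals for cleavage and polyadenylation of the transcript. On pROK2 the second NOSt copy ends the nptII transcription unit, and the first ends a unit in which the cauliflower mosaic virus 35S promoter drives an empty cloning site.

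On the plasmid, nptII (9252 to 10046 bp), both terminators and the 35S unit are read from the minus strand. Minus-strand reads are therefore in the sense of these transcripts, and plus-strand reads are antisense. Upstream of the transcription start the words sense and antisense have no such meaning, and only plus and minus are used for NOSp. The 2 NOSt copies share an identical run of 261 bases at 6777 to 7037 and 8607 to 8867 bp, so that the stretch used for the first copy is shifted by 1 base against the run. Positions on NOSt are counted from 1 at the end of the run that transcription reaches first, with both copies overlaid, and positions on NOSp are counted upstream from the base next to the nptII start codon. The run had a GC content of 35.6%, and the 359 bases of the NOSp stretch, which ends at the right border repeat, had 46.2%.

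Both elements were densely covered by siRNA of both strands and all size classes, and they differed from each other in density. NOSp held 2696 reads per kb (2529 to 2872) and the 2 NOSt copies together 1686 (1576 to 1801), so that the intervals lay apart. They overlapped when every read with at least 1 base in an element was counted, at 2758 per kb on NOSp (2589 to 2935) and 2462 on NOSt (2329 to 2600). The stretch with the 35S promoter held 2776 reads per kb (2694 to 2860), with an interval that overlapped that of NOSp. The nptII coding region held 5169 (5012 to 5329), the highest of these 4 elements. Densities refer to 1 copy of the plasmid, since how often an element was inserted was not taken into account.

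The order between promoter and terminator was the same for the variety of reads. With reads of the same position, length and strand counted once, 389 different reads remained on NOSp, or 1084 per kb (979 to 1197), and 333 on NOSt, or 638 per kb (571 to 710). Since a sequence from the repeat can be placed on either copy, the 333 reads were pooled over both copies, and this lowers the density per kb. Counted for each copy on its own, 205 different reads gave 785 per kb (682 to 901) on the first copy and 207 gave 793 per kb (689 to 909) on the second, both below NOSp. The different reads on nptII (931 per kb, 865 to 1000.4) and on the 35S stretch (975 per kb, 927 to 1025) were no denser than those on NOSp, so that nptII led in read number only. A read was seen 2.64 times on average on NOSt and 2.49 times on NOSp, against 5.55 times on nptII and 2.85 times on the 35S stretch. Pooling over both copies raises the NOSt value. Counted for each copy on its own it was 1.89 on the first and 2.38 on the second, both below NOSp.

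Reads covered almost the whole of both elements. Minus-strand reads covered all 261 bases of NOSt, and plus-strand reads covered 248. On NOSp each strand left 1 of 359 bases uncovered. Coverage was nevertheless uneven, with a median of 10 plus-strand and 15 minus-strand reads per base on NOSt and a highest value of 142 plus-strand reads at position 10 and of 179 minus-strand reads at position 251. On NOSp the medians were 30 and 19 and the highest values 80 plus-strand reads at position 165 and 119 minus-strand reads at position 317.

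Most of the reads had the length of siRNA, and the main size differed in its lead between the elements. On NOSt 803 of 880 reads were 21 to 24nt long, and the 24nt class (350) exceeded the 22nt (207), 21nt (126) and 23nt classes (120). On NOSp 862 of 968 reads fell into this range, where the 24nt (315) and 22nt classes (300) exceeded the 21nt (145) and 23nt classes (102). The 24nt class was thus the most frequent on NOSt, whereas 22nt and 24nt reads on NOSp had overlapping count intervals (267 to 336 and 281 to 352).

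**Figure D1:**
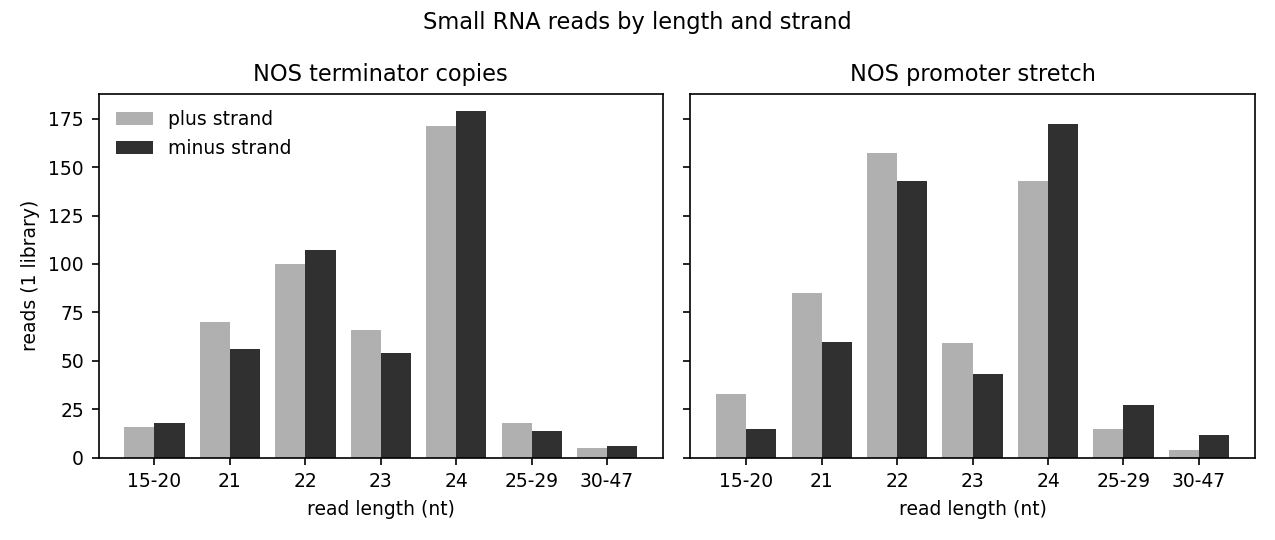
Number of reads (y axis) by read length in nt (x axis) on the pooled NOS terminator copies and on the NOS promoter stretch, in the 1 small RNA library of SALK_059379, with plus-strand reads in grey and minus-strand reads in black. Reads of 24nt stood above all other lengths on the terminators (350), and on the promoter 22nt (300) and 24nt reads (315) were about as frequent.

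Among reads of siRNA length (21 to 24nt), the 24nt class accounted for 43.6% on NOSt (40.1 to 47.1) and for 36.5% on NOSp (33.3 to 39.9). The difference was 7.04 percentage points (2.33 to 11.7). For 22nt siRNA the order was the reverse, with 25.8% on NOSt (22.8 to 28.97) and 34.8% on NOSp (31.6 to 38.1), a difference of -9.02 points (-13.4 to -4.61). After identical reads had been collapsed, both intervals included 0. The 24nt share was higher on NOSt by 3.57 points (-3.90 to 11.0) and the 22nt share differed by -0.56 points (-7.78 to 6.75).

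Compared with their neighbours on the T-DNA, the 24nt share of NOSt lay close to that of the 35S stretch (46.6%), with a difference of -2.97 points (-6.70 to 0.81). It was higher than that of nptII (26.3%) by 17.3 points (13.6 to 21.0). NOSp lay between both, 10.2 points above nptII (6.77 to 13.8) and below the 35S stretch, with a difference of -10.01 points (-13.5 to -6.40). With each different read counted only once, the 24nt share on NOSp differed from that on nptII by 1.69 points (-4.40 to 7.99) and from the 35S stretch by -1.04 points (-6.48 to 4.76), and NOSt differed from nptII by 5.26 points (-1.27 to 12.0), with 0 inside each interval.

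**Figure D2:**
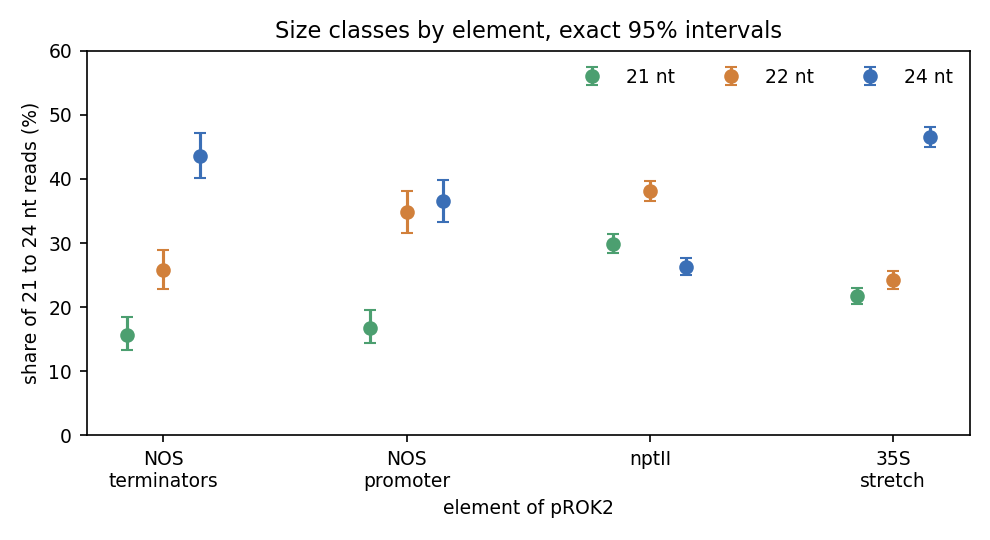
Share of 21nt, 22nt and 24nt reads among the 21 to 24nt reads (y axis, percent) for the NOS terminators, the NOS promoter, nptII and the stretch with the 35S promoter of pROK2 (x axis), with exact 95% intervals as bars. The 24nt share was 43.6% on the terminators, 36.5% on the promoter, 26.3% on nptII and 46.6% on the 35S stretch.

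Summed over each element as defined by read midpoints, the strands gave similar numbers of reads. On NOSt 434 of 880 reads (49.3%, 46.0 to 52.7) lay on the minus strand, and on NOSp 472 of 968 (48.8%, 45.6 to 52.0), a difference of 0.56 points (-4.00 to 5.11). The split depended on where an element was taken to end and on repeated reads. On NOSt the minus strand gave 42.6% of reads wholly inside (38.7 to 46.6) and 28.8% with the ends moved inwards by 50 bases (23.98 to 34.1), and the first copy had 43.6% and the second 53.9%. On NOSp it gave 39.0% with the ends moved inwards (35.2 to 42.9), and 42.4% of the different reads (37.5 to 47.5), below an even split. On nptII 39.2% of all reads but 58.6% of the different reads were on the minus strand, so that its order against NOSt and NOSp turned with the way of counting. By size, the minus strand of NOSt gave 44.4% of 21nt reads (35.6 to 53.6), 51.7% of 22nt (44.7 to 58.7) and 51.1% of 24nt reads (45.8 to 56.5). On NOSp it was 41.4% for 21nt reads (33.3 to 49.8), 47.7% for 22nt (41.9 to 53.5) and 54.6% for 24nt reads (48.9 to 60.2). The 21nt interval stayed just below an even split, but that of the different 21nt reads (40.5%, 29.6 to 52.1) included it.

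The totals were made of opposite strand excesses in different places. When each element was divided into 3 stretches of equal length, the minus strand gave 32.0% of 460 reads (27.7 to 36.4) in the part of NOSt that transcription reaches first, 32.4% of 148 reads (24.98 to 40.6) in the middle, and 87.9% of 272 reads (83.4 to 91.5) in the downstream part. Antisense reads thus outnumbered sense reads in the first and middle stretches, and sense reads prevailed near the downstream end. In the middle, however, 45.2% of the different reads were on the minus strand (33.5 to 57.3), an interval that included an even split. Counted by 5′ ends, the middle held 29 plus-strand and 36 minus-strand reads. Per base of NOSt the median coverage was 10 plus-strand and 15 minus-strand reads. The middle of the terminator was thinly covered, with 16.8% of the NOSt reads.

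NOSp showed a strand change of similar size. Next to nptII 26.2% of 252 reads (20.9 to 32.1) were from the minus strand, in the middle 40.1% of 416 (35.4 to 45.0), and next to the right border 79.7% of 300 (74.7 to 84.1). The excess of plus-strand reads lay on the side of nptII, and that of minus-strand reads on the side of the border. On the plasmid this runs opposite to NOSt, where the minus-strand excess lies at the lower coordinates.

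**Figure D3:**
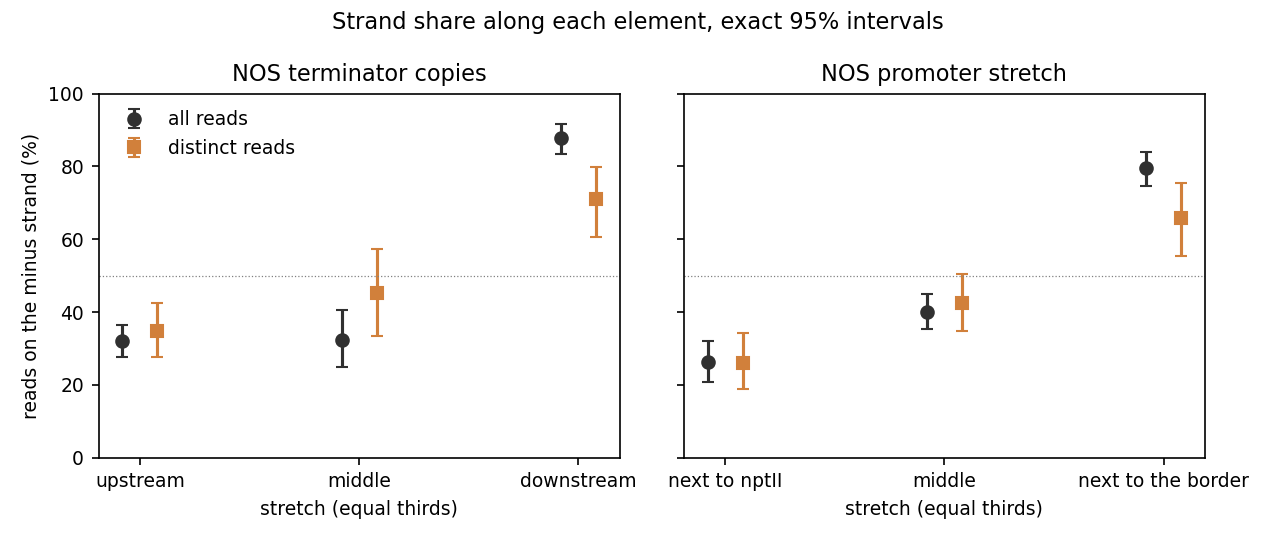
Share of reads on the minus strand (y axis, percent) in 3 stretches of equal length (x axis) along the pooled NOS terminator copies, in the direction of transcription, and along the NOS promoter, from nptII to the right border. Black points count all reads and orange points count identical reads once, with exact 95% intervals, and the last stretch lies highest in both elements (87.9% and 79.7% of all reads).

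The change of strand along the elements did not rest on a few repeated reads. With identical reads counted once, the minus-strand shares on NOSt were 34.7% (27.5 to 42.5), 45.2% (33.5 to 57.3) and 71.0% (60.6 to 79.9), and on NOSp 25.9% (18.8 to 34.2), 42.5% (34.7 to 50.6) and 66.0% (55.5 to 75.4). Without the 10 most frequent 5′ ends of each element, the last stretch still had 76.8% minus-strand reads on NOSt (68.9 to 83.4) and 65.5% on NOSp (58.0 to 72.5), against 33.3% and 26.2% in the first stretch. By size, the last stretch of NOSt had 90.3% minus-strand reads in the 21nt class (74.2 to 98.0), 87.9% in the 22nt class (77.5 to 94.6) and 88.0% in the 24nt class (80.3 to 93.4). In the last stretch of NOSp it gave 90.1% of 22nt (82.1 to 95.4) and 72.1% of 24nt reads (62.8 to 80.2), whereas the 62.2% of 37 reads of 21nt (44.8 to 77.5) had an interval that included an even split. The 27 reads of 21nt in the middle of NOSt did not share the antisense excess, with 51.9% on the minus strand (31.9 to 71.3).

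Strand excesses were also found elsewhere on the T-DNA. In consecutive windows of 87 bases, the length of the NOSt stretches, the minus-strand share ran from 12.4 to 82.5% over 9 windows of nptII and from 12.1 to 90.7% over 18 windows of the 35S stretch. In windows of 120 bases, about the length of the NOSp stretches, it ran from 28.0 to 73.4% on nptII and from 20.4 to 66.4% on the 35S stretch. The last stretch of NOSp (79.7%) lay above all of these 120-base windows, and that of NOSt (87.9%) below the highest of the 87-base windows.

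Size also changed along NOSp. The 24nt share was 28.97% (22.99 to 35.5) next to nptII, 36.7% (31.9 to 41.7) in the middle and 42.5% (36.5 to 48.8) next to the border, so that the intervals of the outer stretches did not overlap. With identical reads counted once the shares were 27.5, 32.4 and 33.8%, with overlapping intervals. On NOSt the 24nt share was 44.9, 40.0 and 43.4% in the order of transcription, with overlapping intervals.

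A read that lies wholly inside the repeat matches both terminators equally well, and its placement on a copy in the deposited list carries no information on its origin. This was so for 624 of the 880 NOSt reads, of which 320 (51.3%, 47.3 to 55.3) were listed on the second copy. They were made up of 258 different sequences, 79 of which were listed on both copies, among them all 7 sequences with at least 10 reads. All 968 NOSp reads, in contrast, had a single place on pROK2.

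The remaining 256 NOSt reads crossed an edge of the repeat and could be assigned to 1 copy, 84 to the first and 172 to the second. To count such copy-specific siRNA without regard to their midpoint, all exact reads with at least 1 base inside and 1 base outside the run were taken. The first copy, downstream of the 35S unit, had 213 reads over its upstream edge (185 to 244) and 223 over its downstream edge (195 to 254), 436 in all (396 to 479). The second copy, downstream of nptII, had 46 (33.7 to 61.4) and 136 (114 to 161), 182 in all (157 to 210). The order of the copies thus depended on the midpoint rule, with more edge-crossing reads at the second copy when the midpoint had to lie inside and more at the first when it did not. Of the reads at the first copy, 67 were a single read with only 1 base inside the run.

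The prevailing strand at each edge was the same for both copies. Over the upstream edge, minus-strand reads made up 9.39% (5.83 to 14.1) at the first copy and 4.35% (0.531 to 14.8) at the second. Over the downstream edge they made up 90.1% (85.4 to 93.7) and 99.3% (96.0 to 99.98), with intervals that did not overlap. The value of the second copy rested largely on 1 group of neighbouring 5′ ends, which held 103 of its 136 reads. With at least 5 bases required on both sides the shares were 92.9% (88.5 to 96.0) and 94.7% (74.0 to 99.9), with overlapping intervals. The antisense excess at the upstream side and the sense excess at the downstream side of the pooled terminators were therefore also found in reads that belong to only 1 copy. This is not a separate observation, since edge-crossing reads made up 84 of the 460 reads in the first pooled stretch and 172 of the 272 in the last. Reads wholly inside the repeat had a smaller contrast, with 38.6% on the minus strand in the first stretch (33.6 to 43.7) and 75.0% in the last (65.3 to 83.1).

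**Figure D4:**
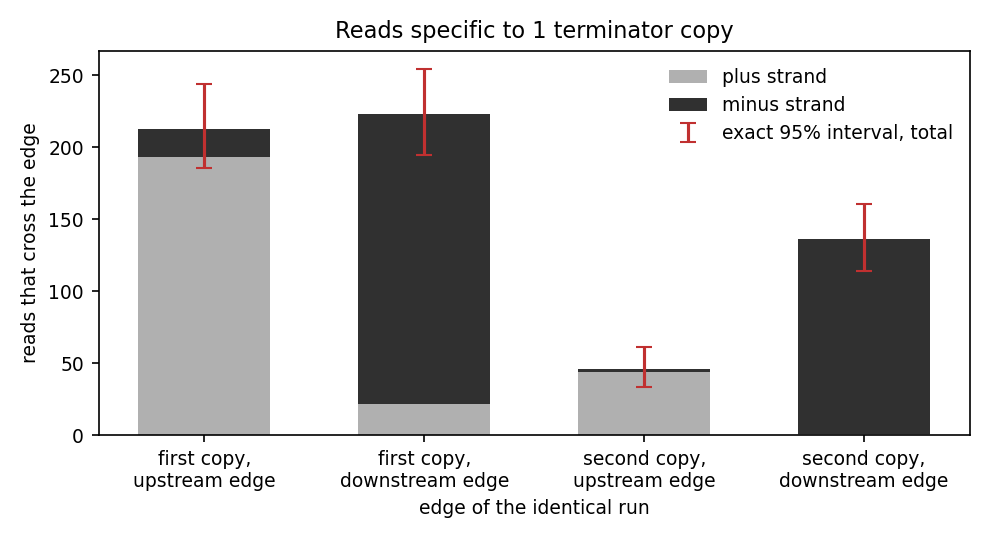
Number of exact reads (y axis) that cross the upstream or downstream edge of the identical run in the first and second NOS terminator copy (x axis), with plus-strand reads in grey, minus-strand reads in black and the exact 95% interval of each total in red. The upstream edges hold nearly only plus-strand reads and the downstream edges nearly only minus-strand reads, and the first copy has 436 reads against 182 for the second.

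The sizes of the copy-specific reads differed between the edges of the first copy. Over its upstream edge the 24nt class made up 127 of 192 siRNA-length reads (66.1%, 59.0 to 72.8), and over its downstream edge 62 of 212 (29.2%, 23.2 to 35.9). At the second copy the shares were 39.5% (24.04 to 56.6) and 30.4% (22.5 to 39.3). The upstream edge of the first copy owed much to a single 24nt plus-strand read at 7037 to 7060 bp, seen 67 times, which has only 1 base inside the repeat. When at least 5 bases were required on both sides of the edge, 96 reads remained there (77.8 to 117) and 57.5% had 24nt (45.9 to 68.5).

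The downstream edge of the second copy was crossed by few bases only. With at least 5 bases required on both sides 19 of the 136 reads remained (11.4 to 29.7), and with at least 10 bases 2 remained (0.242 to 7.22). Over the downstream edge of the first copy 211 (183 to 241) and 156 (132 to 182) reads met the same requirements. With at least 10 bases on both sides, the first copy had 174 copy-specific reads in all and the second 14.

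The most frequent NOSt reads lay at this downstream edge of the second copy. The only 5′ end that held at least 5% of the NOSt reads was that of minus-strand reads at position 241, with 44 reads (5%, 3.66 to 6.65), of which 34 had 24nt, 6 had 23nt and 4 had 22nt. It was followed by 37 reads at position 242 and 24 at position 243, so that 105 reads, or 11.9% of all on NOSt, started within 3 bases. All but 2 of them came from the second copy, and 78 of these 103 ended exactly 3 bases beyond its edge. By length the group divided into 40 (22nt), 30 (23nt) and 34 reads (24nt). The 78 reads thus shared their 3′ end while their lengths and 5′ ends differed. Of the others on the second copy, 21 ended 2 bases and 4 ended 1 base beyond the edge. The reads at position 241 shared their 5′ end and differed in their 3′ end by length. Without this group the minus strand gave 42.5% of the NOSt reads (38.9 to 46.0) and 80.2% in the downstream stretch (73.4 to 86.0).

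The most frequent 24nt minus-strand read of NOSt belonged to this group and was seen 34 times (23.5 to 47.5), 33 of them on the second copy at 8604 to 8627 bp. The most frequent 22nt minus-strand read, at 8604 to 8625 bp, was seen 22 times (13.8 to 33.3), always on the second copy. On the plus strand the most frequent 24nt read ran from position 184 to 161 and was seen 26 times (17.0 to 38.1), divided as 14 and 12 between the copies, whose sequences are identical there. The leading reads of the other classes were rarer. On the plus strand the leading 22nt read started at position 75 and was seen 10 times. The leading 21nt reads were seen 9 times on the plus strand, from position 21, and 10 times on the minus strand, from position 250.

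**Figure D5:**
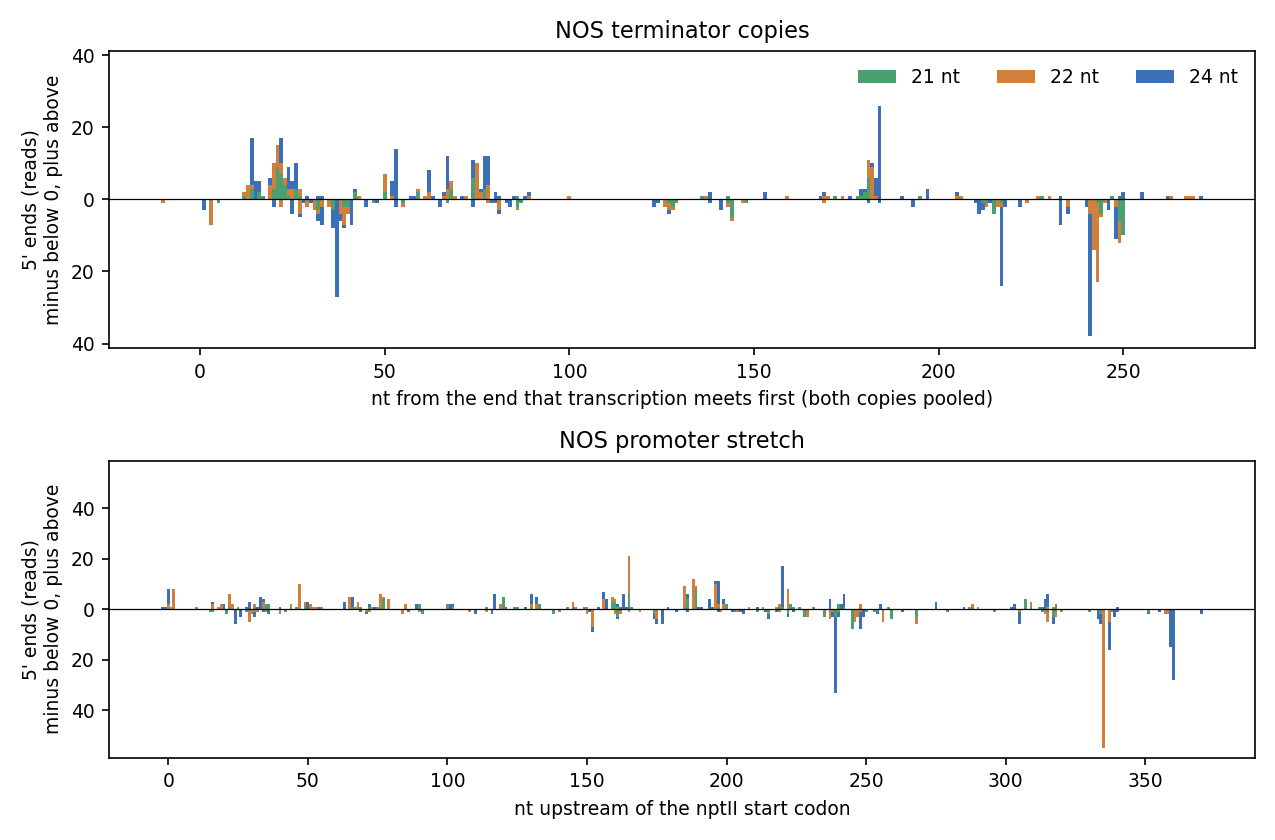
Number of 5′ ends of 21nt, 22nt and 24nt reads (y axis, plus strand above 0 and minus strand below) by position (x axis, nt) along the pooled NOS terminator copies, counted in the direction of transcription, and along the NOS promoter, counted upstream from the nptII start codon. The tallest peaks are on the minus strand, at position 241 of the terminators and at position 335 of the promoter, where all 55 reads have 22nt.

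NOSp had its most frequent 5′ end on the minus strand at position 335, near the right border. All 55 reads with this end (5.68% of the NOSp reads, 4.31 to 7.33) were the same 22nt read at 10360 to 10381 bp, which made up 38.5% of the 143 minus-strand 22nt reads. It started with C. No read of another length used this 5′ end. Without it, the 22nt class of NOSp numbered 245 reads (30.4%, 27.2 to 33.7) beside 315 in the 24nt class (39.0%, 35.7 to 42.5). Removing the largest 22nt read while keeping the leading 24nt reads favours the 24nt class by construction, and of the different reads on NOSp 97 had 22nt and 101 had 24nt.

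The most frequent 24nt read of NOSp, at 10262 to 10285 bp on the minus strand, was seen 30 times (20.2 to 42.8). It was followed by a 24nt minus-strand read at the border end of the stretch with 28 reads. The plus strand had 16 reads of its leading 24nt read (9.15 to 26.0), from position 220, and 15 of its leading 22nt read (8.395 to 24.7), from position 165. The leading 21nt reads were seen 8 times on each strand, from position 189 on the plus strand and from position 245 on the minus strand.

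Minus-strand reads with a 5′ end at the right border formed a further group. The border repeat is the 25-base sequence at 10406 to 10430 bp at which the T-strand is cut during transfer, and 43 exact reads crossed its inner edge. Of these, 37 reached exactly 1 base into the repeat, all on the minus strand, while 15 further minus-strand reads started at the last base before it. Only 6 reads reached further in, by 2 to 19 bases. The other end of NOSp, at the nptII start codon, was crossed by 35 reads (24.4 to 48.7), of which 60% were on the minus strand (42.1 to 76.1).

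The use of 5′ ends was moderately concentrated on both elements. NOSt reads started at 181 different combinations of position and strand and NOSp reads at 264. The 10 most frequent ones held 29.8% of the reads on NOSt and 23.8% on NOSp, between the 19.0% of the 35S stretch and the 45.3% of nptII, where 1 end alone held 12.3% of the reads.

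The base at the 5′ end of a siRNA is known to influence the ARGONAUTE protein that binds it, with A favoured by the AGO4 group of the RdDM pathway and U by AGO1. Of the 24nt reads on NOSp 46.0% started with A (40.4 to 51.7), against 27.1% A in the sequence of the element, weighted by strand. Nearly all of this excess came from 3 minus-strand 5′ ends, at positions 239, 359 and 360. They held 73 of the 315 reads, and without them the share was 29.8% (24.1 to 35.9). These ends were picked as the most frequent minus-strand ones that start with A, so that leaving them out lowers the share by construction. Counted once, 31.7% of the different 24nt reads started with A (22.8 to 41.7).

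On NOSt the 24nt reads started with A in 34.6% (29.6 to 39.8), with 32.2% A in the element, and with U in 37.7% (32.6 to 43.0). The share of A depended on the reads counted. It was 43.0% of those wholly inside (37.0 to 49.1), 41.2% with every overlapping read (36.9 to 45.5) and 45.0% with the ends moved inwards (36.3 to 54.0). These intervals lay above the 32.2%. Those of the different reads (41.2%, 31.3 to 51.7) and of the second copy alone (31.5%, 25.1 to 38.4) included it. G was rarer at the 5′ end of these reads (9.14%, 6.34 to 12.7) than in the element (17.9%), and among different reads its share was 11.3% (5.80 to 19.4), an interval that included the share in the element. For 22nt reads of NOSt the shares of U (40.6%, 33.8 to 47.6) and A (36.7%, 30.1 to 43.7) had overlapping intervals, and of the different reads 34.1% started with U and 37.8% with A. On NOSp U (36.3%, 30.9 to 42.1) and C (36.0%, 30.6 to 41.7) were equally frequent. The 55 copies of the leading read account for 55 of the 108 reads with C, and counted once 22.7% started with C (14.8 to 32.3).

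Dicer products leave duplexes in which each strand has an overhang of 2 bases at its 3′ end. Among the 24nt reads of NOSt, 123 of 350 (35.1%, 30.1 to 40.4) had a partner of the same length on the other strand in exactly this position. This was the highest count of the 21 relative positions examined, from 10 bases to one side to 10 to the other, although the next highest was close with 118 reads and the median of the others was 57. Every copy of a read was counted once any partner read existed. The 34 minus-strand reads at position 241 and the 27 at position 37 had 1 plus-strand partner read each. The terminator copies were overlaid, so that partners could come from different copies. The rank was not recomputed with identical reads counted once. For 22nt and 21nt reads of NOSt the shares were 19.3% and 7.94%, ranks 7 and 6 of 21. On NOSp 17.1% of 24nt, 19.7% of 22nt and 11.7% of 21nt reads had such a partner, ranks 5, 4 and 8, so that no size class of the promoter had its highest count at this position.

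The terminator repeat is also present on pCSA110, in a single copy at 7028 to 7288 bp and in the opposite orientation, and this copy was covered in SAIL_232 leaves. It held 50 exact reads (37.1 to 65.9) of the 2851 exact reads on pCSA110, or 1.75% (1.30 to 2.31), against 4.01% (3.75 to 4.28) for the 2 copies among the exact reads on pROK2. The lines carry different plasmids and were sequenced in separate libraries of unknown total depth, so that levels cannot be compared between them. In its 38 reads of siRNA length the 24nt class numbered 19 (50%, 33.4 to 66.6), an interval that included the 43.6% of pROK2. Reads in the sense of the terminator made up 28.0% on pCSA110 (16.2 to 42.5). On pROK2 they were 49.3% of all NOSt reads but 42.6% of those wholly inside the terminators (38.7 to 46.6), and no difference is drawn between these 2 libraries. Of the 36 different sequences, 19 were also found on the NOSt copies of pROK2.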

How the data were processed

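Adapter-trimmed reads were mapped by the authors to the plasmid sequences, and those that also mapped to TAIR10 were removed. The deposited small RNA lists hold 1 read per line with its strand and its first and last position on the plasmid (positions, a unit of another kind than an expression value), without normalization. The submitters' processing notes name Bowtie2 (2.3.0), Bowtie (0.12.7) and FastQC. Sequencing depth beyond the listed reads (25606 on pROK2) is unknown. The RNA-seq list of aligned pieces for SALK_059379 was used only for counts of pieces. The other samples among the 39 of the series were not analysed here.

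The entries were counted in Python (3.11.15) with pandas (2.3.3), and intervals were computed with scipy (1.17.1). Elements took the reads with their midpoint inside and no mismatch. Counts have exact Poisson intervals, shares exact Clopper-Pearson intervals and differences of shares Newcombe intervals from statsmodels (0.14.6), all at 95%. The nptII coding region was read from the plasmid as the open reading frame upstream of which NOSp lies, and the 35S stretch was all sequence between both NOSt copies. Neighbouring 5′ ends were joined to a group where each held at least 1% of the reads. The counting was checked on simulated reads of known size, strand and duplex share. None of the 880 and 968 reads had an exact match in the TAIR10.1 reference. Since reads that mapped to TAIR10 had already been removed, this is no independent check of their origin. Reads are named where they were the most frequent of 21, 22 or 24nt on a strand of an element, and 5′ ends where they held at least 5% of its reads. Other reads and ends, the groups of neighbouring ends and the 3 stretches were chosen after the values were seen. The elements and this rule were chosen with earlier results of these data known. No read sequence is printed, since all are vector sequence.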

Additional observations from a re-analysis of the deposited data

Results flagged for a closer look

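Reads with mismatches were left out of every comparison, and 157 of them had their midpoint on NOSt (133 to 184) and 155 on NOSp (132 to 181). Of these, 143 and 149 differed from the plasmid at 1 base. Among their 21 to 24nt reads 24nt made up 31.0% on NOSt (21.5 to 41.9) and 44.6% on NOSp (34.7 to 54.8), and the minus strand gave 33.8% (26.4 to 41.7) and 57.4% (49.2 to 65.3) of the reads.

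The RNA-seq library of SALK_059379, which no comparison used, listed 4 pieces of 130 bases on the first NOSt copy (1.09 to 10.2), 1 of 129 bases on the second (0.0253 to 5.57) and 4 on NOSp (1.09 to 10.2), 2 of which had at least 30 bases. All 9 were listed on the plus strand, and the strand orientation of this RNA-seq library is unknown. Pieces on the NOSt copies cannot be assigned to 1 of them where they lie inside the repeat.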

How the results depend on the processing

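The 12 quantities fixed for both elements were recomputed under 88 combinations with an alternative, and 55 of the values stayed inside the counting interval of the reported value. The 33 others follow. With identical reads counted once, the 24nt share was 34.6% on NOSt and 31.1% on NOSp, the 22nt share 29.3% and 29.8%, the density 638 and 1084 reads per kb, the share of 24nt reads with a 5′ A 41.2% and 31.7%, the share at the most frequent 5′ end 1.80% and 1.29%, and the minus-strand share of NOSp 42.4%. As a share of all lengths, 24nt reads were 39.8% on NOSt and 32.5% on NOSp, and 22nt reads on NOSp 31.0%. Without the most frequent 5′ end, the 22nt share of NOSp was 30.4%.

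With only reads wholly inside, NOSt had 42.6% minus-strand reads, 1205 reads per kb and 43.0% of 24nt reads with a 5′ A. With every read that overlaps by 1 base, NOSt had 2462 reads per kb, with an interval that overlapped that of NOSp (2758), and 41.2% with a 5′ A. With mismatched reads counted too, the densities were 1987 and 3128 per kb. With the ends moved inwards by 50nt, the minus-strand shares were 28.8% on NOSt and 39.0% on NOSp, the densities 1012 and 2467 per kb, and on NOSt 45.0% of 24nt reads had a 5′ A and 7.98% of reads the most frequent 5′ end. The first copy alone had 43.6% minus-strand reads and 1487 reads per kb, and the second 53.9%, 1885 per kb and 8.74% at its most frequent 5′ end.

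Other comparisons were chosen after the data were seen. The difference in the 24nt share kept its direction in all 7 alternatives, but the intervals of both shares overlapped with identical reads counted once (3.57 points), with mismatched reads (4.98) and without the most frequent 5′ end (2.60). For the 22nt share they overlapped with identical reads counted once (-0.56) and without the most frequent 5′ end (-3.61). The rise of the minus-strand share from the first to the last stretch of each element kept its direction, with intervals apart, in all 14 alternatives. Moving the ends inwards by 50nt was not among these, so that the rise was not checked without the outer bases. With the ends so moved, the minus-strand share of the whole element was 28.8% on NOSt and 39.0% on NOSp. No paired analysis was possible because each group has 1 library. Depth limits the rarest classes, such as the 2 reads that crossed the downstream edge of the second copy by at least 10 bases.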
